A study of Mus musculus with 32 samples.

Results

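The transcripts of 8 lipid droplet genes, Pparg, Mogat1, Fitm1, Fitm2, Plin2, Plin3, Plin4 and Plin5, were followed in the liver of mice given disulfiram (DSF), an inhibitor of aldehyde dehydrogenases used against alcohol dependence. They were taken by gene symbol from the annotation of a whole-genome bead array, on which 11 of 25697 probes and 8 of 16593 gene symbols belonged to them. All 8 genes passed the filter on dim probes (detected in at least 5 mice) and were tested among 9954 genes. The animals were male C57BL/6J mice aged 56 weeks with no engineered allele, in 6 groups that differed only in diet and DSF. HFD mice ate an AIN-93G diet modified to give 61% of calories as fat, HFDL mice the same diet with a low dose of DSF (100 mg/kg/day, 2.33 g per kg of food) and HFDH mice with a high dose (200 mg/kg/day, 2.67 g per kg of food). SD mice ate the standard AIN-93G diet with 17% of calories as fat, SDL mice this diet with the low dose (1 g per kg of food) and SDH mice with the high dose (2 g per kg of food). After 3 arrays of very low signal were left out, 27 of 30 mice remained, 5 HFD, 4 HFDL, 4 HFDH, 5 SD, 5 SDL and 4 SDH. Each mouse was 1 liver RNA sample, and the p-values measure the spread between mice.

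Triglyceride in hepatocytes is kept in lipid droplets, which form in the membrane of the endoplasmic reticulum and carry a coat of proteins. PPARγ, encoded by Pparg, is a nuclear receptor that binds DNA together with RXR and drives the adipocyte programme of lipid storage. It is scarce in normal liver and rises in fatty liver. MOGAT1 joins a fatty acid to monoacylglycerol and so makes the diacylglycerol from which triglyceride is built. FITM1 and FITM2 are membrane proteins of the endoplasmic reticulum that help droplets to form, FITM1 mainly in muscle and FITM2 in many tissues. Perilipins coat the droplet and govern access of lipases to it. PLIN2 is the main coat protein of hepatocyte droplets, PLIN3 is found in most tissues and moves between cytosol and droplet, PLIN4 is typical of white fat, and PLIN5 belongs to tissues that burn fat and brings droplets close to mitochondria.

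Levels are given as scaled intensity, the fluorescence of a probe after each array was brought to a common mean and spread on the log2 scale. A probe counted as detected in a mouse at a detection p under 0.05, and probes of different genes cannot be compared in level. On the 29 arrays used, between 43.8% and 52.7% of probes were detected and the median signal was 57 to 77. Of 7 hepatocyte markers on the array, Apoa1, Ttr, Serpina1a and Cps1 were detected in all 27 mice, Alb in 13, and Fgb and Tat in none. Of 7 adipocyte markers, Retn, Plin1 and Fabp4 were detected in no mouse, Adipoq in 7, Lep in 8, and Car3 and Cidec in all 27. Exocrine pancreas markers summed to 58048 in SDH mouse 17 and 7872 in SD mouse 2, against 636.5 to 1786 in the other 25 mice. Of the 9 pancreas markers, 6 were also detected in SD mouse 4 (sum 1786) and 7 in SDL mouse 7 (sum 1272). Skeletal muscle markers summed to 37248 in SDH mouse 17 and to 388 to 470 elsewhere. Results against SD are therefore also given without SDH mouse 17 and SD mouse 2 where the call differed. Below, the mice with pancreas markers are these 2 alone, and SD mouse 4 and SDL mouse 7 were kept. In whole liver RNA, fewer cells of a type and less RNA per cell cannot be told apart.

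Mogat1 fell in all 4 comparisons of DSF with its control diet, Pparg in 3 and Fitm1 in 1, and no perilipin nor Fitm2 passed the test in any comparison. Under other processing Plin3 and Plin4 also passed as lower in HFDH than in HFD livers, with all 30 mice weighted by array quality and with median centring, and Plin2 with median centring. The test was limma on 27 mice, and a gene passed at a Benjamini-Hochberg adjusted p under 0.05 over 9954 genes. In HFDH against HFD livers, Mogat1, Fitm1 and Pparg were lower, 3 of 8 genes, where 2.94% of all genes tested were lower. In HFDL against HFD livers, Mogat1 and Pparg were lower, 2 of 8 genes, where 0.392% of all genes were. On the standard diet, Mogat1 alone was lower in SDL livers (1 of 8, with 0.362% of all genes lower), and Mogat1 and Pparg were lower in SDH livers (2 of 8, with 4.27% of all genes lower). The 8 genes were chosen with earlier results of these data known, so the shares are a description and no test of the set. HFD against SD livers gave 0 of 8 genes in limma, with 0.934% of all genes called in either direction. At an unadjusted p under 0.05 in limma there were 3 genes (Plin2, Plin3 and Plin4), where 1390 of all 9954 genes were. The criteria of the study's methods gave 1 gene, Fitm1 (a false discovery rate under 0.3 between the groups with a Z ratio past 1.5, and an analysis of variance over all groups). The share of all genes passing these criteria was not counted, so no result is read from this count. The median log2 fold change of the 8 genes was -0.88 in HFDH against HFD livers and -0.70 in HFDL against HFD livers. It was -0.22 in SDL against SD livers, -0.07 in SDH against SD livers and 0.38 in HFD against SD livers, and the medians over all genes tested lay between -0.04 and -0.01. The comparisons with DSF share their control mice within each diet, 5 HFD or 5 SD mice. With the 3 arrays of very low signal put back without weights, none of the 8 genes passed in any comparison. At an unadjusted p under 0.05 in limma there were 5 genes in HFDL and in HFDH against HFD livers, 2 in SDL against SD livers and 1 in SDH against SD livers. The matching share of all genes was not counted. Mogat1 was then -1.37 (adjusted p = 0.13) in HFDH against HFD livers, Pparg -1.32 (adjusted p = 0.1) and Fitm1 -1.46 (adjusted p = 0.16). In SDH against SD livers Mogat1 was -0.66 (adjusted p = 0.41), Pparg -1.02 (adjusted p = 0.25) and Fitm1 -0.28 (adjusted p = 0.62).

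The 3 genes that fell are shown with the 250 bases before their transcription start (RefSeq, GRCm38.p6), since each was called in HFDH against HFD livers and Pparg encodes a DNA-binding receptor. RefSeq held windows for all 8 genes, 11 in all, among them 3 for Pparg, of which the most upstream and the most downstream are printed. Capitals mark the half-site bound by many nuclear receptors, AGGTCA, the CCAAT box with those letters, the TATA box with the letters TATAAA and a C/EBP motif, TTGCNNAA, each searched on both strands.
Pparg upstream start (chr6:115360894-115361143, plus strand): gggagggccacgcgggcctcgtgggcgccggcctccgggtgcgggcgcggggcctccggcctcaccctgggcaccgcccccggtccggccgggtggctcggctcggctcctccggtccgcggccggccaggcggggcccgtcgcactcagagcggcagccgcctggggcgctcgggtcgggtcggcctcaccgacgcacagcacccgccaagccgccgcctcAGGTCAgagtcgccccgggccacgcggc
Pparg downstream start (chr6:115421816-115422065, plus strand): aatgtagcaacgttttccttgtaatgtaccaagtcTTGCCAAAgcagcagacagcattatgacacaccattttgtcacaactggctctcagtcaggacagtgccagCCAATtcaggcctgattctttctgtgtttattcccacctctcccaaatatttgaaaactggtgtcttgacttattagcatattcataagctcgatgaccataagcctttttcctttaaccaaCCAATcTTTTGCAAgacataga
Mogat1 (chr1:78510810-78511059, plus strand): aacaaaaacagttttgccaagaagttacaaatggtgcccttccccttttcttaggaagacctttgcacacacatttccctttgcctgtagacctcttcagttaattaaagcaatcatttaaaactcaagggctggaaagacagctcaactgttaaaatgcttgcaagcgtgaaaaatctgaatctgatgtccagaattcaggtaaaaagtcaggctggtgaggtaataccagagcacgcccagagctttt
Fitm1 (chr14:55575424-55575673, plus strand): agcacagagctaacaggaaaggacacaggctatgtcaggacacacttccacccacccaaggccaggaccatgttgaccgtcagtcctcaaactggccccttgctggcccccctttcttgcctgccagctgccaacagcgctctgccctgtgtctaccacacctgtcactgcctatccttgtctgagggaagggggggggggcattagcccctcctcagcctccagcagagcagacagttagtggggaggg
AGGTCA stood at positions -28 to -23 of the upstream Pparg window, counted from the start site, and in none of the other 3 windows printed. It was found in 14.0% of 32851 promoter windows of this length. The downstream Pparg window held CCAAT at -144 and at -22, and TTGCNNAA at -215 and, on the opposite strand, at -16 (33.9% and 9.56% of all windows hold them). The Mogat1 and Fitm1 windows held none of these motifs, nor GGGCGG, the GC box (32.7% of all windows). The upstream Pparg window held GGGCGG, left in lower case, on the opposite strand at -177. TATAAA, present in 12.4% of all windows, stood in none of the 4 windows printed. The Pparg window not printed, between the other two, held AGGTCA at -9, TATAAA on the opposite strand at -29 and CCAAT on the opposite strand at -83. It held GGGCGG at -127 and, on the opposite strand, at -210. The full PPAR response element, 2 AGGTCA half-sites 1 base apart, was in no window of the 8 genes and in 0.03% of all windows. Among the other members, AGGTCA on either strand was present in the windows of Plin2 and Plin5, and not in those of Fitm2, Plin3 and Plin4.

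Pparg, the receptor gene, was read by 3 probes, of which the brightest stood for the gene. Its scaled intensities were 552, 396, 363, 729 and 615 in HFD mice, 225, 339.6, 257 and 195 in HFDL mice and 148, 218, 288 and 254 in HFDH mice. Every HFDL and HFDH mouse was below every HFD mouse. On the standard diet they were 387, 573, 516, 423 and 555 in SD mice, 292, 352, 247, 238 and 209 in SDL mice and 273, 251, 459 and 192 in SDH mice, where the 5 SDL mice were below the 5 SD mice and SDH mouse 15, at 459, lay among the SD mice. Pparg fell in HFDH livers (227 ± 59.7) against HFD livers (531 ± 153, mean ± SD, n = 4 and 5; log2 fold change -1.22 with a standard error of 0.24, adjusted p = 0.0038). It fell in HFDL livers (254 ± 62.2, n = 4; log2 fold change -1.04 with a standard error of 0.24, adjusted p = 0.044) and in SDH livers (294 ± 116, n = 4) against SD livers (491 ± 82.1, n = 5; log2 fold change -0.80 with a standard error of 0.24, adjusted p = 0.042). In SDL against SD livers the fitted log2 fold change was -0.88 with an adjusted p of 0.068, which missed the threshold, and HFD and SD livers differed by 0.08 (95% interval -0.38 to 0.54). In the order of group means, HFD and SD stood first and differed from each other by less than their spread, and SDH, SDL, HFDL and HFDH followed, each within the SD of its neighbour.

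The Pparg call in HFDH against HFD livers stood whichever of the 27 mice was left out. The call in HFDL against HFD livers was lost with 15 of the 27 mice left out in turn (log2 fold change -1.19 to -0.92, adjusted p 0.021 to 0.17). These were HFD mice 1, 4 and 5B, HFDL mice 7, 9 and 11, HFDH mice 14 and 17, SD mice 2 and 3, SDL mice 7, 9 and 10, and SDH mice 13 and 14. The call in SDH against SD livers was lost without SD mouse 2, 3 or 5 or SDH mouse 13, 14 or 17, and without both mice with pancreas markers it was -0.56 (adjusted p = 0.22). In SDL against SD livers Pparg passed without SDH mouse 15 or 17 (adjusted p = 0.04 and 0.042), and with array weights, median centring, the mean of the detected probes or only these groups in the fit (0.028, 0.042, 0.026 and 0.046). It passed there under 5 of 11 alternatives in all, the other being the criteria of the study's methods.

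The 2 dimmer Pparg probes followed the bright one over the 27 mice (Pearson's r 0.86 and 0.87, as a description of probes read in the same RNA). Probe ILMN_1221594 was detected in 5 of 5 HFD mice and in none of the 4 HFDL and 4 HFDH mice, and in 4 of 5 SD, 3 of 5 SDL and 2 of 4 SDH mice. Probe ILMN_1221893 was detected in 4 of 5 HFD mice and 4 of 5 SD mice, and with DSF only in 1 of 4 SDH mice and in none of the HFDL, HFDH and SDL mice. Both dim probes were thus near the detection limit in the mice given DSF. In a fit over 13275 probes, ILMN_1221893 had a log2 fold change of -0.79 (adjusted p = 0.0048) in HFDH against HFD livers and ILMN_1221594 one of -0.64 (adjusted p = 0.019). With the HFDH group below detection on all its arrays these are at least 1.19-fold and at least 1.31-fold lower. Such a bound sets the mean of the brighter group against, per array, the lowest signal among detected probes or the dim probe's own signal, whichever is higher. In SDL against SD livers, ILMN_1221893 passed at -0.74 (adjusted p = 0.016), at least 1.29-fold lower, whereas the bright probe did not.

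**Figure D1:**
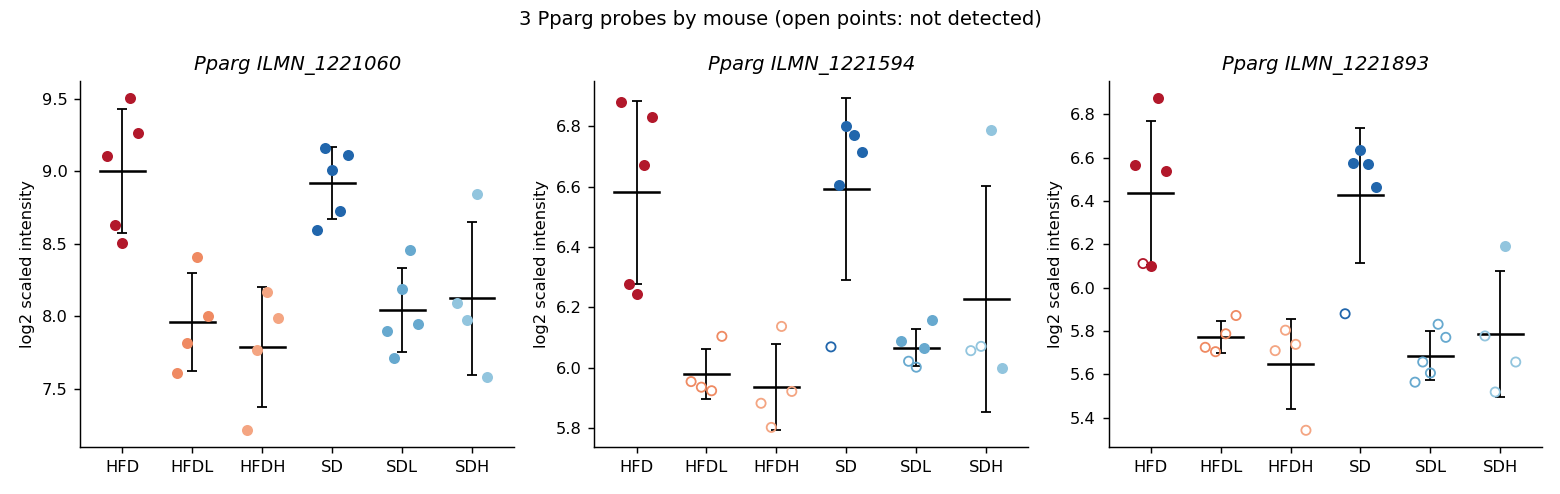
Log2 scaled intensity (y axis) of the 3 Pparg probes in each of 27 mice by group (x axis), with filled points for mice in which the probe was detected, open points for mice in which it was not, and a line and bar for the group mean and SD. The HFDL and HFDH mice lie below the HFD mice on each probe, and on the 2 dimmer probes all of them are open points.

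Mogat1, the monoacylglycerol acyltransferase, showed the clearest difference and was at or near background in mice given DSF. Its scaled intensities were 258, 135, 172, 178 and 97.1 in HFD mice, 57.8, 51.9, 62.0 and 57.9 in HFDL mice and 51.4, 53.9, 57.4 and 52.4 in HFDH mice. The probe was detected in 5 of 5 HFD mice and in none of the 8 HFDL and HFDH mice, and the groups did not overlap. On the standard diet the values were 93.4, 185, 125, 161 and 77.4 in SD mice, 70.2, 66.0, 55.7, 53.6 and 50.4 in SDL mice and 48.4, 50.7, 59.6 and 57.2 in SDH mice. The probe was detected in 5 of 5 SD mice, in 2 of 5 SDL mice and in 0 of 4 SDH mice, and the lowest SD mouse, at 77.4, was above the highest mouse given DSF, at 70.2.

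Mogat1 was at least 2.18-fold lower in HFDH livers (53.7 ± 2.62, n = 4) than in HFD livers (168 ± 59.9, n = 5; fitted log2 fold change -1.57 with a standard error of 0.22, adjusted p = 1.1e-04). It was at least 2.28-fold lower in HFDL livers (57.4 ± 4.14, n = 4; fitted log2 fold change -1.48 with a standard error of 0.22, adjusted p = 5.6e-04). In SDH livers (54.0 ± 5.29, n = 4) it was at least 1.87-fold lower than in SD livers (128 ± 44.98, n = 5; fitted log2 fold change -1.18 with a standard error of 0.22, adjusted p = 0.0021). In SDL livers (59.2 ± 8.49, n = 5) it also fell, with the probe measured above background in only 2 of the 5 mice (fitted log2 fold change -1.05 with a standard error of 0.20, adjusted p = 0.01). Leaving out any 1 mouse ended none of the 4 calls for Mogat1, with adjusted p up to 0.049 in SDL against SD livers and up to 0.0085 in the other comparisons. With only SDL and SD mice in the fit the SDL call was lost (adjusted p = 0.086). Without both mice with pancreas markers it was -1.06 (adjusted p = 0.013) in SDH against SD livers and -0.90 (adjusted p = 0.045) in SDL against SD livers. In HFD against SD livers the fitted difference was 0.39 (95% interval -0.03 to 0.81, adjusted p = 0.4), and the 2 groups overlapped. Since the HFDL, HFDH and SDH groups were all below detection, no order among them can be read.

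Fitm1 was the droplet-forming gene that fell, and Fitm2 did not pass in any comparison. Scaled intensities of Fitm1 were 293, 442, 276, 454 and 412 in HFD mice, 129.8, 259, 257 and 151 in HFDL mice and 100.1, 188, 199 and 137 in HFDH mice. Each of the 8 mice given DSF on the high-fat diet was below the lowest HFD mouse. Fitm1 fell in HFDH livers (156 ± 45.9, n = 4) against HFD livers (375 ± 84.4, n = 5; log2 fold change -1.29 with a standard error of 0.24, adjusted p = 0.0024), and this call held whichever mouse was left out. In HFDL livers (199 ± 68.5, n = 4) the fitted difference from HFD livers was -0.95 with an adjusted p of 0.08, and it passed with array weights (adjusted p = 0.0055) and with median centring (adjusted p = 0.024). In all, it passed under 3 of 11 alternatives.

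On the standard diet Fitm1 measured 246, 354, 268, 315 and 186 in SD mice, 243, 216, 291, 186 and 179 in SDL mice and 144, 178, 205 and 126 in SDH mice, and 3 of the 4 SDH mice were below the lowest SD mouse. SDH against SD livers differed by -0.74 on the log2 scale (adjusted p = 0.058), and the gene passed without SD mouse 5 or without HFDH mouse 13 (adjusted p = 0.026 and 0.047), and with array weights or median centring (0.035 and 0.025). In all, Fitm1 passed there under 3 of 11 alternatives. SDL against SD livers differed by -0.29 (95% interval -0.75 to 0.18). Fitm1 is best known from muscle. SDH mouse 17, the liver with skeletal muscle markers, had the lowest Fitm1 of its group, 126, and the part of other tissue in this level was not tested. HFD against SD livers differed by 0.46 (95% interval -0.004 to 0.92, adjusted p = 0.36), a gap above the SD of either group.

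Fitm2 ranged from 1061 to 1683 in HFD mice, from 946 to 1233 in HFDL mice and from 859 to 1381 in HFDH mice, and from 1136 to 1611, 977 to 1607 and 1083 to 1406 in SD, SDL and SDH mice. All 6 groups overlapped. Its log2 difference was -0.32 in HFDL against HFD livers (95% interval -0.63 to -0.01, adjusted p = 0.45) and -0.26 in HFDH against HFD livers (-0.57 to 0.05). On the standard diet it was -0.02 in SDL livers (-0.31 to 0.27) and -0.10 in SDH livers (-0.41 to 0.22).

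**Figure D2:**
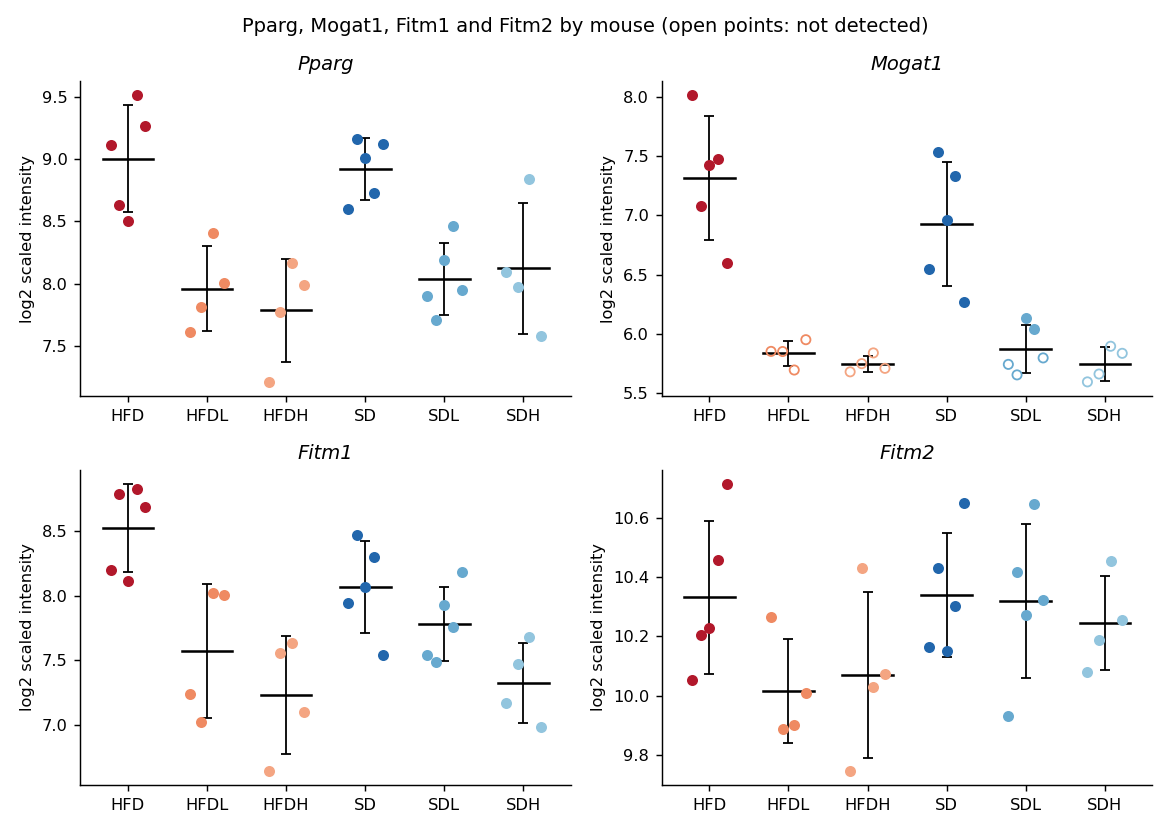
Log2 scaled intensity (y axis) of Pparg, Mogat1, Fitm1 and Fitm2 in each of 27 mice by group (x axis: HFD, HFDL, HFDH, SD, SDL, SDH), with open points where the probe was not detected and a line and bar for the group mean and SD. Mogat1 was detected in all 10 mice without DSF and in 2 of 17 mice with it, and Pparg and Fitm1 of HFDL and HFDH mice lie below those of HFD mice, while the groups overlap for Fitm2.

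The main hepatocyte coat gene, Plin2, passed in no comparison of the 27 mice, but did under some other processing. It measured 3536, 3706, 2920.2, 4209 and 3968 in HFD mice, 3551, 3195, 3254 and 3663 in HFDL mice and 3023, 3254, 2936 and 2095 in HFDH mice. It measured 2282, 3064, 2845, 2459 and 3858 in SD mice, 2160.1, 2375, 2315, 2449 and 2582 in SDL mice and 3309, 2430.3, 3271 and 4108 in SDH mice. The HFD group had the highest mean and the SDL group the lowest, and neighbours in that order differed by less than their spread. Log2 differences were 0.35 in HFD against SD livers (adjusted p = 0.25), -0.38 in HFDH against HFD livers (0.15) and -0.09 in HFDL against HFD livers (0.88). With the low dose, all 4 HFDL mice were above all 5 SDL mice, a log2 difference of 0.52 with an adjusted p of 0.052, just over the threshold. It passed (adjusted p 0.029 to 0.049) when HFD mouse 3, HFDH mouse 17, SD mouse 1 or 5, SDH mouse 14 or 17, or SDL mouse 11 was left out. It also passed with array weights (0.48, adjusted p = 0.028) and under 4 of the other alternatives. In HFDH against HFD livers Plin2 passed with median centring, at -0.65 (adjusted p = 0.01).

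Plin3 measured 757, 599, 477, 821 and 525 in HFD mice, 491, 372, 471 and 512 in HFDL mice and 475, 420.2, 447 and 378 in HFDH mice. It measured 421, 379, 452, 819 and 366 in SD mice and 374 to 524 in the 9 SDL and SDH mice. One SD mouse, number 4, stood at 819, far above the other 4 SD mice at 366 to 452. Log2 differences were 0.42 in HFD against SD livers (adjusted p = 0.26), -0.54 in HFDH against HFD livers (0.092) and -0.44 in HFDL against HFD livers (0.37). Without SD mouse 4, Plin3 passed as higher in HFD than in SD livers, at 0.63 (adjusted p = 0.03), and as lower in HFDH than in HFD livers, at -0.54 (adjusted p = 0.025). Plin3 was also called in HFDH against HFD livers with array weights, at -0.49 (adjusted p = 0.023), and with median centring, at -0.69 (adjusted p = 0.023). With array weights it was counted as higher in HFD than in SD livers as well, at 0.42, with an adjusted p that rounds to 0.05. SDL and SDH against SD livers differed by -0.17 and -0.02.

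Plin4, the perilipin of white fat, had the widest spread of the 8 genes between mice. It measured 1862, 1311, 1464, 2266 and 1147 in HFD mice, 870.1, 1293, 922 and 282 in HFDL mice and 885, 479, 951 and 215 in HFDH mice. All 4 HFDH mice were below all 5 HFD mice, and HFDL mouse 8 lay among the HFD mice. On the standard diet the values were 307, 828, 598, 1169 and 728 in SD mice, 749, 849, 892, 659 and 205 in SDL mice and 504, 739, 771 and 592 in SDH mice, and the 3 groups overlapped. HFDH against HFD livers differed by -1.52 (standard error 0.46, adjusted p = 0.058), and Plin4 passed there without HFDL mouse 11, SD mouse 1 or SDL mouse 11 (adjusted p = 0.035, 0.047 and 0.031). It also passed there with array weights, at -1.15 (adjusted p = 0.023), with median centring, at -1.70 (adjusted p = 0.016), and when only these groups were fitted, at -1.50 (adjusted p = 0.049). With array weights it passed in HFD against SD livers, at 1.24 (adjusted p = 0.015). HFDL against HFD livers differed by -1.09 (adjusted p = 0.39) and HFD against SD livers by 1.23 (adjusted p = 0.2, unadjusted p = 0.0088 in limma), where 4 of 5 HFD mice were above every SD mouse. SDL and SDH against SD livers differed by -0.15 (95% interval -1.04 to 0.74) and -0.05 (-0.997 to 0.90).

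Plin5, the perilipin of fat-burning tissues, was the only member whose estimate with low-dose DSF lay above the control on both diets, with neither past the test. It measured 2493, 2009, 2458, 2723 and 1424 in HFD mice, 4684, 3112, 3645 and 1459 in HFDL mice and 2337, 2774, 1852 and 906 in HFDH mice. It measured 1128, 1548, 2084, 2302 and 1577 in SD mice, 2413, 2882, 3031, 2876 and 1672 in SDL mice and 2258, 2691, 2214 and 984 in SDH mice. In HFDL livers 3 mice were above every HFD mouse and the fourth was near the lowest HFD mouse, and in SDL livers 4 of 5 mice were above every SD mouse. Log2 differences were 0.45 in HFDL against HFD livers (95% interval -0.23 to 1.14, adjusted p = 0.68) and 0.59 in SDL against SD livers (-0.06 to 1.23, adjusted p = 0.52). With the high dose they were -0.25 against HFD livers and 0.19 against SD livers, and HFD against SD livers differed by 0.37. The second Plin5 probe followed the first over the 27 mice (r = 0.93) and gave 0.38 (adjusted p = 0.58) in HFDL against HFD livers and 0.41 (adjusted p = 0.49) in SDL against SD livers.

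**Figure D3:**
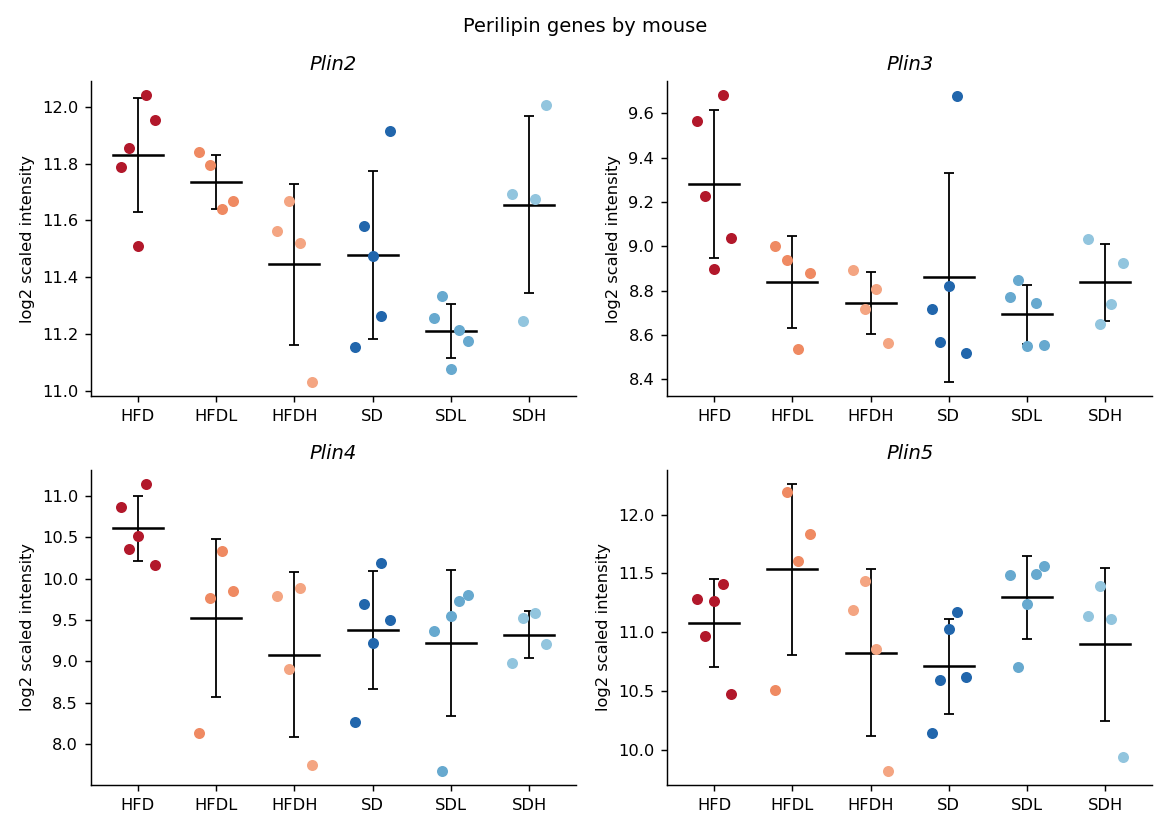
Log2 scaled intensity (y axis) of Plin2, Plin3, Plin4 and Plin5 in each of 27 mice by group (x axis: HFD, HFDL, HFDH, SD, SDL, SDH), with a line and bar for the group mean and SD. SD mouse 4 stands above its group for Plin3, and single mice stand far below theirs for Plin4, such as SDL mouse 11 at a scaled intensity of 205.

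Plin4 and Plin5 are neighbours on chromosome 17 with no annotated gene between them, and the same mice were low in both. HFD mouse 5B, HFDL mouse 11, HFDH mouse 17, SD mouse 1 and SDL mouse 11 each had the lowest Plin4 and the lowest Plin5 of its group. SDH mouse 17 had the lowest Plin5 of its group, 984, and the second lowest Plin4, 592. Over 27 mice Pearson's r of their log2 levels was 0.53, and 0.71 for deviations from the group means, the highest of the 28 pairs of members. The points share array and RNA sample, so the coefficient is a description. Pparg and Fitm1 followed at 0.55 within groups (0.78 over all mice). Pparg and Mogat1 correlated at 0.76 over all mice but at 0.13 within groups, with 15 of the 27 Mogat1 values below detection.

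**Figure D4:**
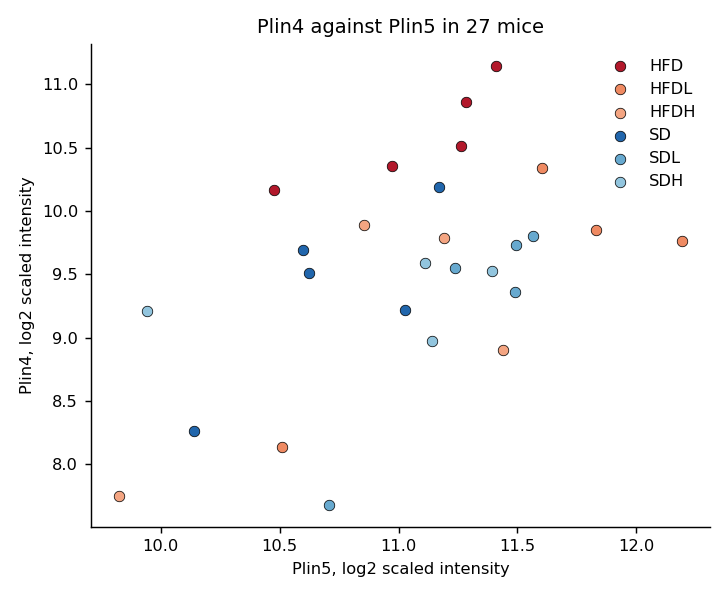
Log2 scaled intensity of Plin5 (x axis) against Plin4 (y axis), 1 point for each of 27 mice, coloured by group. Mice low in Plin4 within their group tend to be low in Plin5, with r of 0.71 for deviations from the group means.

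The high dose was set against the low dose within each diet, and no gene of the array passed in either comparison (0% of genes tested in limma, with 588 genes at an unadjusted p under 0.05 in HFDH against HFDL livers and 844 in SDH against SDL livers). None of the 8 genes passed, with 0 and 1 at an unadjusted p under 0.05. The criteria of the methods gave 0 and 1 gene, with the share of all genes not counted. Pparg differed by -0.17 in HFDH against HFDL livers (95% interval -0.69 to 0.34) and by 0.08 in SDH against SDL livers (-0.41 to 0.57). Fitm1 differed by -0.34 (-0.85 to 0.18) and -0.45 (-0.94 to 0.04). The concentrations in food stood closer together on the high-fat diet (2.67 and 2.33 g/kg) than on the standard diet (2 and 1 g/kg).

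Whether DSF acted differently on the 2 diets was tested as the difference between the fold changes. None of the 8 genes passed at either dose. At the low dose 0% of all genes passed and at the high dose 0.0603%. An unadjusted p under 0.05 in limma was found in 420 and 1270 of all 9954 genes tested, and in 0 and 2 of the 8 genes. At the high dose these were Plin4, with a difference of -1.47 (95% interval -2.81 to -0.14, adjusted p = 0.35), and Plin2, with -0.56 (-0.997 to -0.13, adjusted p = 0.26). For Pparg the difference was -0.42 at the high dose (-1.11 to 0.27) and -0.16 at the low dose (-0.83 to 0.51). For Fitm1 it was -0.55 (-1.24 to 0.14) and -0.67 (-1.34 to 0.01). Between mice given the same dose on the 2 diets, none of the 8 genes passed in HFDL against SDL livers, where 3.04% of all genes did, nor in HFDH against SDH livers, where 6.84% did. At an unadjusted p under 0.05 in limma there were 1 of the 8 genes, Plin2, and 0 of the 8, where 2001 and 2426 of all 9954 genes were. By the criteria of the methods 1 and 0 genes passed there, with the share of all genes not counted.

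**Figure D5:**
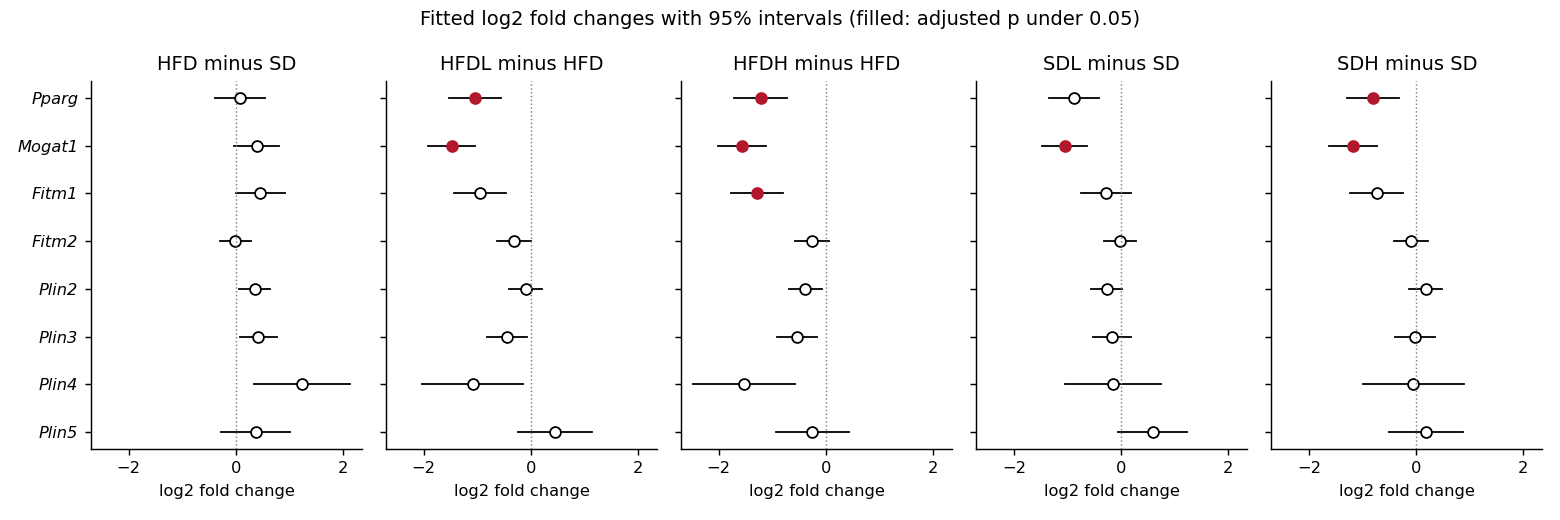
Fitted log2 fold change (x axis) of the 8 genes (y axis) in HFD against SD livers and in the 4 comparisons of DSF with its control diet, with 95% intervals as lines and filled red points for an adjusted p under 0.05. The filled points are Mogat1 in all 4 DSF comparisons, Pparg in 3 and Fitm1 in HFDH against HFD livers, and every Plin4 interval is the widest of its panel.

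The genes whose levels ran most like those of the 3 members that fell were named by Pearson's r over the 27 mice, 3 for each, with no test. For Pparg these were Tenm3 (r = 0.90), Osbpl3 (0.84) and Aldh3a2 (0.83). For Mogat1 they were a probe without a gene symbol, ILMN_1221257 (0.92), Chil1 (0.91, detected in only 6 mice) and Lgals1 (0.90). For Fitm1 they were Clstn3 (0.90), Tmem134 (0.87) and Pcca (0.83). The values include the differences between groups, and all come from the same arrays.

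Known targets of PPARγ were also counted, and 10 of 15 listed genes were tested. Cidea, a protein that enlarges lipid droplets, was lower in all 4 DSF comparisons. Its scaled intensity averaged 1149 ± 476 in HFD mice (SD, n = 5), 105 ± 59.7 in HFDL mice and 109 ± 90.7 in HFDH mice (n = 4 each). It averaged 751 ± 545 in SD mice, 82.5 ± 27.2 in SDL mice (n = 5 each) and 74.2 ± 18.8 in SDH mice (n = 4). It was detected in all 10 mice without DSF, and with DSF in 2 of 4 HFDL, 2 of 4 HFDH, 3 of 5 SDL and 2 of 4 SDH mice. It fell in HFDH against HFD livers (log2 fold change -3.58 with a standard error of 0.56, adjusted p = 4.9e-04) and in HFDL against HFD livers (log2 fold change -3.48 with a standard error of 0.56, adjusted p = 0.0019), in SDH against SD livers (log2 fold change -2.88 with a standard error of 0.56, adjusted p = 0.0033) and in SDL against SD livers (log2 fold change -2.76 with a standard error of 0.53, adjusted p = 0.01). Cidec, a droplet protein of the same family, fell in HFDH against HFD livers (log2 fold change -1.88 with a standard error of 0.46, adjusted p = 0.018). Lpl, the lipoprotein lipase, rose in SDH livers (4448 ± 813, n = 4) against SD livers (905 ± 524, n = 5; log2 fold change 2.45 with a standard error of 0.36, adjusted p = 2.3e-04). The counts were thus 2 lower in HFDH against HFD livers, 1 lower in HFDL against HFD livers, 1 higher and 1 lower in SDH against SD livers, 1 lower in SDL against SD livers and none in HFD against SD livers. The median log2 fold change of the 10 genes was 0.09 in HFDH and -0.09 in HFDL against HFD livers, 0.11 in SDH and 0.23 in SDL against SD livers and 0.16 in HFD against SD livers.

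Of 14 receptors, partners and coregulators of PPARs tested, Ppara, the receptor of fatty acid oxidation, fell in HFDH against HFD livers (log2 fold change -0.54 with a standard error of 0.12, adjusted p = 0.0082) and in SDH against SD livers (log2 fold change -0.44 with a standard error of 0.12, adjusted p = 0.024). Ppargc1b, a coactivator, fell in HFDH against HFD livers (log2 fold change -0.79 with a standard error of 0.22, adjusted p = 0.041), and Rxra, the partner receptor RXRα, rose in SDH against SD livers (log2 fold change 0.37 with a standard error of 0.11, adjusted p = 0.049). None of the 14 passed in HFDL against HFD, SDL against SD or HFD against SD livers. Of 12 tested PPARα targets of fatty acid oxidation, Acadm, a mitochondrial acyl-CoA dehydrogenase, rose in HFD against SD livers (log2 fold change 0.36 with a standard error of 0.08, adjusted p = 0.036), and none passed in a comparison of DSF with its control diet. The Acadm call was lost under 9 of 12 alternatives, with a value of 0.14 (adjusted p = 0.56) after quantile normalization and of 0.063 (adjusted p = 0.7) with median centring.

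Of 13 genes of triglyceride synthesis tested beside Mogat1, 1 passed in each comparison with the high dose. Gpat3, a glycerol-3-phosphate acyltransferase, fell in HFDH against HFD livers (log2 fold change -0.86 with a standard error of 0.25, adjusted p = 0.045), and Agpat2, which makes phosphatidic acid, fell in SDH against SD livers (log2 fold change -0.56 with a standard error of 0.14, adjusted p = 0.014). None passed with the low dose, and the list median was -0.18 in both comparisons with the high dose. Of 17 other lipid droplet proteins tested, Cidea, Cidec and Pcyt1a, the rate-limiting enzyme of phosphatidylcholine synthesis, fell in HFDH against HFD livers (Pcyt1a, log2 fold change -0.81 with a standard error of 0.21, adjusted p = 0.027), and Cidea alone passed in the other DSF comparisons. Cidea and Cidec stand in both lists.

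Some of the genes listed as cell type markers also passed in these comparisons, and whether the cells themselves changed was not tested. The summed level of the 7 adipocyte markers was 19196 to 22782 in HFD mice, 9477 to 17857 in HFDL mice and 6279 to 16228 in HFDH mice. It was 7420 to 17302 in SD mice, 5421 to 13747 in SDL mice and 7979 to 15048 in SDH mice. Between 87.7% and 97.7% of this sum was Car3, a gene for carbonic anhydrase 3. The other 6 markers summed to 653 to 967 in HFD, 364 to 459.8 in HFDL and 387 to 490.5 in HFDH mice, and to 375 to 939.8 in SD, 323 to 445 in SDL and 327 to 982 in SDH mice. Car3 and Cidec, both lower in HFDH than in HFD livers (Car3, log2 fold change -1.09 with a standard error of 0.30, adjusted p = 0.036), are the adipocyte markers detected in all mice, and the fat-cell genes Plin1, Fabp4 and Retn were detected in none. Kupffer cell markers summed to 2326 to 7121 in HFD, 3487 to 4698 in HFDL and 2503 to 5340 in HFDH mice, and none of 7 tested passed in any comparison. Of 7 stellate cell markers tested, Col1a1 fell in SDH against SD livers (log2 fold change -0.96 with a standard error of 0.27, adjusted p = 0.033). Its probe was detected in only 1 of 4 SDH mice and in 4 of 5 SD mice, and the median log2 fold change of the 7 markers was 0.04. Of 3 cholangiocyte markers, Sox9 rose in SDH against SD livers (log2 fold change 0.94 with a standard error of 0.20, adjusted p = 0.006). Of 5 hepatocyte markers tested, Serpina1a rose in SDH against SD livers (log2 fold change 0.74 with a standard error of 0.15, adjusted p = 0.0038). With all 30 mice Serpina1a turned to -0.49. The Alb probe also passed there, but it was dim (mean log2 level 6.15 over all mice, detected in 13). It averaged 83.7 in SDH and 58.6 in SD mice, and was detected in 4 of 4 SDH and 0 of 5 SD mice. The probe signal was thus at least 1.26-fold higher. Whether a probe this near the detection limit follows the Alb transcript was not tested, so no rise of Alb is read from it. Without both mice with pancreas markers, calls in SDH against SD livers were lost for Ppara (-0.46, adjusted p = 0.058), Rxra (0.39, 0.1), Agpat2 (-0.43, 0.1), Col1a1 (-0.90, 0.074) and Alb (0.33, 0.19). Of 19 calls of list genes in these 5 comparisons, those of Cidea, Lpl, Agpat2, Sox9 and Serpina1a, and of Ppara in HFDH against HFD livers, stood whichever mouse was left out. The other 10 were each lost without any 1 of 3 to 18 mice, most often Rxra and Gpat3. The part of these cells in the levels of the 8 genes was not tested.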

How the data were processed

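Liver RNA of 30 mice was hybridised to 32 Illumina MouseRef-8 v2 arrays, 2 mice having a repeat array (r = 0.997 and 0.996, averaged as 1 mouse each). The authors extracted intensity per probe with GenomeStudio (version 2011.1) and deposited it on a linear scale with a detection p-value for each probe. The authors also computed and deposited a score per probe, the Z-normalized log intensity of each array, used only as an alternative. Labels gave no slide or scan date. Groups came from the sample titles, and intensity columns were tied to them by name. The columns of the 20 mice given DSF carry mouse numbers that no title gives, so their diet and dose rest on the column name alone.

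On the log2 scale, each array was shifted to a mean of 0 over its probes and rescaled to the spread shared by all arrays (SD 1.89). Arrays with under 35% of probes detected were left out (3 mice, 1 each of SDH, HFDL and HFDH, with 6.56%, 23.7% and 27.2% detected). The brightest of the probes detected in at least 5 mice stood for a gene. Tests were made in limma (version 3.58.1, under R 4.3.3), all 6 groups in 1 fit, with Benjamini-Hochberg adjustment in each of 11 comparisons. The fit was tested on simulated independent normal values, with no detection limit and no arrays of low signal, so the simulation does not bear on probes below detection or on those arrays. Arrays carry no read depth, and the number of mice limits precision.

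All 8 members are named, up to 4 called genes of each list, and the 3 genes most correlated with each member that was called. The members and the 12 lists were chosen with earlier results of these data known. Sequences are from RefSeq (GRCm38.p6). Probe sequences were not used here.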

Additional observations from a re-analysis of the deposited data

Results flagged for a closer look

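In 2 of 48 sets of mice (8 genes in 6 groups) 1 mouse stood apart from its group by Dixon's criterion at the 95% level, which chance alone marks in about 1 set in 20. Plin3 in SD mouse 4 (scaled intensity 819) lay above the other SD mice (366 to 452), with a gap of 0.739 of the group's range. Plin4 in SDL mouse 11 (205) lay below the other SDL mice (659 to 892), with a gap of 0.794 of the range.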

How the results depend on the processing

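The main limit is array signal: 3 of 32 arrays had little, and the calls of Pparg, Mogat1 and Fitm1 rest on leaving them out or weighting them by quality. With all 30 mice, and with the authors' Z-scores of 30 mice, members called were 0 in each comparison, 0 instead of 3 in HFDH against HFD, 0 instead of 2 in HFDL against HFD and in SDH against SD, and 0 instead of 1 in SDL against SD livers. With the 30 mice weighted by array quality they were 5 (HFDH against HFD), 3 (HFDL against HFD), 2 (HFD against SD and SDL against SD), 3 (SDH against SD) and 1 (HFDL against SDL). Quantile normalization, neqc and no filter each gave 1 in HFDL against HFD and 1 in SDH against SD livers. Median centring without scaling gave 6 in HFDH against HFD, 3 in HFDL against HFD and in SDH against SD (Fitm1 added in both), 2 in SDL against SD and 1 in HFDL against SDL and HFDH against SDH livers. The mean of all detected probes gave 2 in SDL against SD and 1 in HFDL against SDL livers. Fitting only the groups compared gave 1 in HFDL against HFD, SDH against SD and HFDL against SDL livers, and leaving out the mice with pancreas markers 1 in SDH against SD and HFDL against SDL livers. The criteria of the methods gave 1 in HFD against SD, 2 in SDL against SD, 1 in SDH against SDL and 1 in HFDL against SDL livers. Comparisons not listed for an alternative need not equal the main count. Fitm1, for example, passed under 3 of 11 alternatives in HFDL against HFD and in SDH against SD livers. How many of all genes passed under each alternative was not counted, so a higher count of members is not read as a stronger result for them.

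Without 1 mouse at a time the counts ran from 3 to 4 (HFDH against HFD), 1 to 2 (HFDL against HFD, SDL against SD), 1 to 3 (SDH against SD), 0 to 1 (HFD against SD, HFDL against SDL) and stayed 0 elsewhere. Of 2088 values of single genes under the alternatives, 1951 kept direction and side of the threshold, 47 lost it, 40 gained it, and 50 changed sign, none past the threshold in either setting. Sign changes with all 30 mice (Z-scores in brackets) were Plin5 0.30 (0.32) in HFDH against HFD, Plin2 -1.05 (-1.06), Plin3 0.11 (0.15) and Plin5 -0.76 (-0.75) in SDH against SD, Pparg -0.19 (-0.13) in SDH against SDL, Plin2 -0.58 (-0.62) in HFDL against SDL and -0.92 (-0.98) in the low-dose difference between diets, and Fitm1 (0.045, Z-scores only) in SDH against SDL livers. With array weights they were Fitm2 0.038 in HFD against SD and 0.045 in SDL against SD, and Plin4 0.088 in SDL against SD and 0.045 in SDH against SD livers. Plin3 in SDH against SD became 0.025 with quantile normalization and 0.032 with neqc, and Plin4 0.0036 with neqc. Median centring gave Pparg -0.039 in HFD against SD and Plin2 -0.0093 in SDH against SD livers. Without the pancreas-marker mice Fitm2 was 0.015 in HFD against SD and 0.002 in SDL against SD, and Plin4 0.069 in SDH against SD livers. Leaving out single mice moved Fitm2 from -0.10 to 0.070 (HFD against SD) and -0.10 to 0.076 (SDL against SD), Plin3 from -0.11 to 0.18 (SDH against SD) and -0.25 to 0.037 (SDL against SD), Plin4 from -0.33 to 0.15 (SDH against SD) and -0.43 to 0.24 (SDL against SD), Plin5 from -0.46 to 0.080 (HFDH against HFD), and Pparg from -0.045 to 0.21 (HFD against SD), -0.30 to 0.016 (HFDH against HFDL) and -0.16 to 0.26 (SDH against SDL). Of 30 calls of other listed genes, 24 were lost with all 30 mice and 20 without some single mouse, and Serpina1a in SDH against SD (-0.49, Z-scores -0.53) and Acadm in HFDL against SDL livers (-0.37, Z-scores -0.39) turned negative with 30 mice, as did Acadm under median centring (-0.076 in HFDL against SDL, -0.073 in HFDH against SDH livers). The causes were not tested. With the replicate number as a block, possible only for HFD and SD mice, 0 members passed, as without it, and same-numbered mice shared only a number (r -0.20 to 0.21).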

Other observations

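In the 3 livers left out for low signal, unscaled intensities of the Mogat1 probe were 44 in HFDL mouse 10, 50 in HFDH mouse 16 and 38 in SDH mouse 16, with no detection. The bright Plin5 probe was detected at 1134 in HFDL mouse 10 and 1376 in HFDH mouse 16 and not in SDH mouse 16 (35). Plin2 was not detected in any of the 3 (39, 46 and 34), although its probe was detected in all 27 other mice.

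In mice given the same dose of DSF, some of the listed genes differed between diets while none of the 8 members passed. Lpl was lower in HFDL than in SDL livers (log2 fold change -1.36 with a standard error of 0.36, adjusted p = 0.037) and in HFDH than in SDH livers (log2 fold change -2.11 with a standard error of 0.38, adjusted p = 0.0037). With all 30 mice these were -0.92 (adjusted p = 0.88) and -0.60 (adjusted p = 0.61). The first call was also lost with quantile normalization (adjusted p = 0.056), neqc (0.06) or no filter (0.065), and without HFDL mouse 7, 8 or 9 or SDL mouse 7, 8, 9 or 10. Ppargc1a, a coactivator of mitochondrial genes, and Pdk4, a kinase that restrains pyruvate dehydrogenase, were lower in HFDH than in SDH livers (Ppargc1a, log2 fold change -1.75 with a standard error of 0.42, adjusted p = 0.018; Pdk4, log2 fold change -1.69 with a standard error of 0.47, adjusted p = 0.031). Acadm was higher in HFDL than in SDL livers (log2 fold change 0.33 with a standard error of 0.09, adjusted p = 0.044) and in HFDH than in SDH livers (log2 fold change 0.33 with a standard error of 0.09, adjusted p = 0.035), and turned negative under median centring in both. Without both mice with pancreas markers, Pdk4 (-1.43, adjusted p = 0.094) and Acadm (0.27, 0.09) no longer passed in HFDH against SDH livers. In HFDH against SDH livers 3 of 12 tested PPARα targets were higher and 1 lower, where 6.84% of all genes passed. The higher ones were Acot2 (log2 fold change 0.52, adjusted p = 0.023), Acaa2 (0.45, 0.04) and Acadm. Cideb was also higher (0.51, 0.026), and Pcyt1a (-0.96, 0.016) and Ppargc1b (-0.77, 0.047) were lower. The call was lost under 5 of 11 alternatives for Acot2, 10 for Acaa2, 6 for Cideb, 3 for Pcyt1a and 7 for Ppargc1b. The fit without those mice is among these.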
